A study of Mus musculus with 12 samples.

Results

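The 10 enzymes described here belong to the route from glucose to lactate. They were measured in KPC cells, a mouse pancreatic ductal adenocarcinoma (PDAC) line. The enzymes are Hk2, Gpi1, Pfkl, Pfkp, Aldoa, Gapdh, Pgk1, Eno1, Pkm and Ldha. Tpi1 and Pgam1, also of this route, are not members and are given below with the other glycolytic enzymes. The members were matched by gene symbol. The 10 symbols matched 11 of the 15803 transcripts that had a read in at least 1 library, because Aldoa is listed under 2 gene identifiers. Ribosome profiling and RNA-seq were each run on 2 libraries of untreated cells, 2 of cells given Cis (cisplatin, 20 μM) for 6 h and 2 of cells given Cis for 21 h, 12 libraries in all. Cisplatin is a platinum drug that crosslinks DNA. All groups share the line's genotype, which includes a Cre-activated Trp53 LSL-R172H allele and Cre driven in the pancreas by the Pdx1 promoter. It is a single line, and no source used here says whether the replicates were separate cultures, so the p-values measure only the spread between these libraries. The labels call the controls untreated, the study's methods give PBS for 6 or 21 h, and the same control libraries served both time points. Cells were lysed in cycloheximide, an inhibitor of translation elongation.

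Glycolysis splits glucose into pyruvate in the cytosol. Its first steps spend ATP to phosphorylate and cleave the sugar, and its later steps return ATP and NADH. Lactate dehydrogenase then turns pyruvate into lactate and regenerates NAD+, which lets the pathway run without mitochondria. Many tumor cells, PDAC cells among them, run the pathway at a high rate. HIF-1, the transcription factor of the hypoxia response, and MYC are known activators of these genes, and both bind DNA at sequences with a CGTG core.

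Promoter sequence was therefore set beside the members. RefSeq promoters (GRCm38.p6, 250 bases before to 50 bases after a start site) were searched on both strands for ACGTG and GCGTG, the core of the hypoxia response element. On the other strand these read CACGT and CACGC, and CACGTG, the MYC E-box, holds ACGTG on both strands. Of the 16 windows of the members, 13 (81.2%) held a match, against 63.5% of the windows of all genes tested for footprints and 43.8% of all 32851 promoters. By gene, 9 of 10 members held a match (Gpi1 was the exception), against 69.5% of the 8389 tested genes with a promoter window and 46.7% of all 27025 genes with one. The matches are a description of letters and not of binding. The stretches of 30 bases below are those of the 4 members with more than 1 match within 30 bases, and that of Aldoa, the member with the smallest values at 21 h. Capitals mark the matched bases, and each stretch is written 5′ to 3′ on the strand of the gene.
Ldha, chr7:46845750-46845779, + strand: agcctaCACGTGggttcccgCACGTccgct
Pgk1, chrX:106186947-106186976, + strand: aggACGTGacaaatggaagtagCACGTctc
Eno1, chr4:150237110-150237139, + strand: tCACGCtcttctattggagtgatggCACGC
Gapdh, chr6:125165806-125165835, - strand: ggagcccaCACGCttggtGCGTGcacattt
Aldoa, chr7:126799364-126799393, - strand: atgtggctcgagtCACGTcctagcggggcg

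Among these stretches the E-box CACGTG appeared in that of Ldha, which runs from -54 to -25 relative to the start site. The stretch of Aldoa, with 1 match, runs from -139 to -110.

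A footprint is a fragment of mRNA that a ribosome shields from RNase, and the number of footprints on a coding sequence stands for the ribosomes at work on it. Values are RPKM, a read number divided by the length of the region and by the depth of the library, which allows levels to be set side by side between genes. RPKM is a share of a library, so in these bulk samples fewer cells of a type and less RNA per cell cannot be told apart. Footprint libraries held 3375480 to 5204127 reads and RNA-seq libraries 1985344 to 2901692, of which Lars2, Tmem38b and Mettl26 took 51.8 to 56.6%. The ductal keratin markers of the line were high, with sums over 5 ductal markers of 6599 to 9623 RPKM in footprints, although Epcam and Cldn4 were near 0. The summed levels of the acinar, fibroblast, leukocyte and endothelial markers reached at most 9.68 RPKM in any library, with Cpa1, Prss1 and Cd3e at 0 in all 12.

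The members covered a wide range of levels. In untreated cells, footprints were most abundant on Ldha, with a mean of 7007 ± 192 RPKM (SD, n = 2), and Ldha ranked between 11 and 22 from the top of all transcripts over the 6 footprint libraries. Pgk1 (3108 ± 298) and Pkm (2982 ± 55.0) came next, and their libraries overlapped. They were followed by Gpi1 (1278 ± 17.3), Aldoa (1085 ± 123), Gapdh (869 ± 51.7) and Eno1 (450 ± 56.1), none of which overlapped its neighbour. The enzymes of the first committed steps were far lower, at 154 ± 2.79 RPKM for Pfkp, 105 ± 4.88 for Pfkl and 89.5 ± 2.33 for Hk2. Hk2 ranked between 1784 and 2554 from the top.

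The order of the mRNA levels was not the same. Ldha was again first (879 ± 1.44 RPKM in untreated cells, SD, n = 2), followed by Pgk1 (656 ± 20.4), Pkm (573 ± 27.4), Gapdh (519 ± 14.0) and Aldoa (348 ± 14.4). Eno1 (173 ± 4.06) and Gpi1 (170 ± 8.77) overlapped in RNA, although Gpi1 had more footprints than Eno1 in every library. Pfkl (32.4 ± 0.63) was above Hk2 (21.6 ± 1.40) and Pfkp (20.8 ± 0.38), and the last pair overlapped. Gapdh thus stood 4th from the top in RNA and 6th in footprints among the 10.

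**Figure D1:**
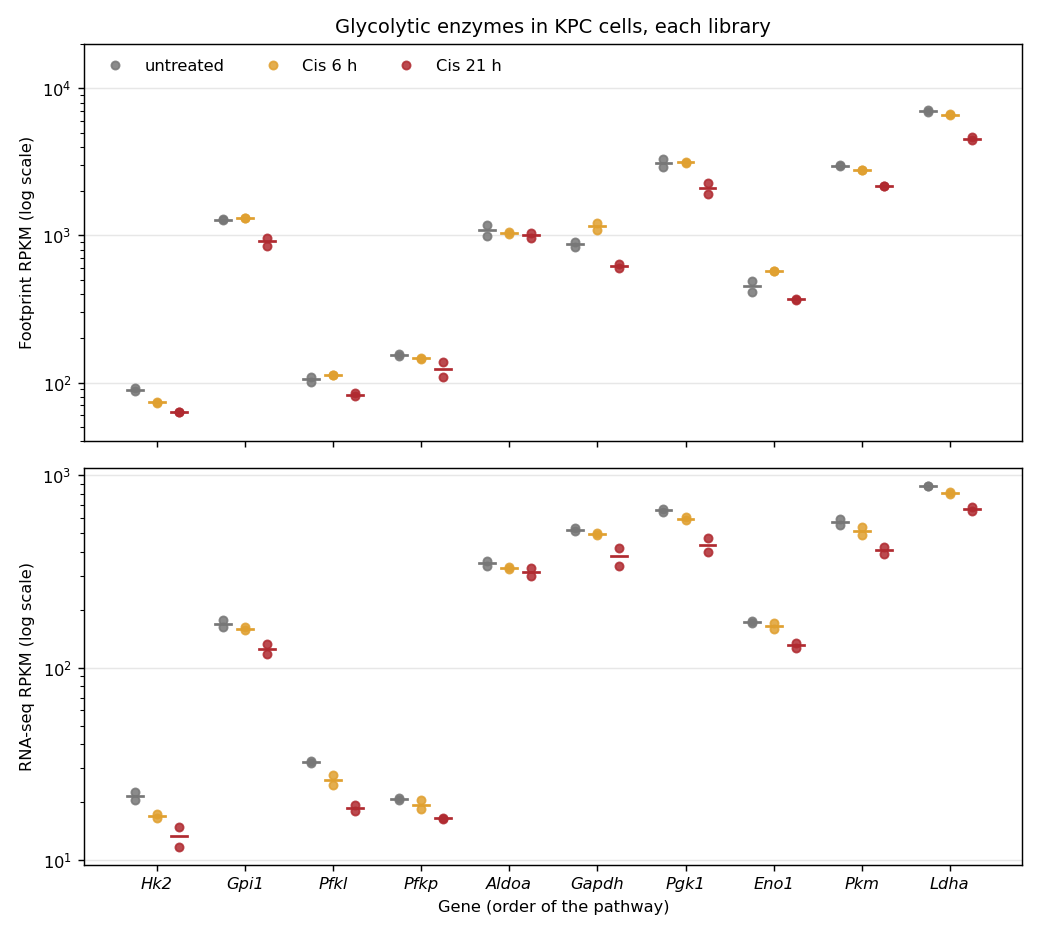
RPKM of each of the 10 enzymes, in pathway order, in each footprint library (top) and RNA-seq library (bottom), on a log scale; points are libraries and bars are the means of 2. Ldha footprints lay at 6871 and 7143 in untreated cells and at 4668 and 4442 at 21 h, while the Aldoa points of the 3 groups lay close together.

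Together the 10 enzymes took 2.18% and 2.24% of all footprints in the untreated libraries (95% Wilson intervals 2.16 to 2.19% and 2.23 to 2.26%). At 6 h the shares were 2.20% and 2.16%, and at 21 h they were 1.61% (1.5995 to 1.6252%) and 1.51% (1.496 to 1.522%). The 21 h libraries lay below all others, and the 6 h libraries overlapped the untreated libraries. In RNA-seq, counted without Lars2, Tmem38b and Mettl26, the shares were 1.47% and 1.39% in untreated cells, 1.40% and 1.36% at 6 h and 1.09% and 0.948% at 21 h. The intervals cover counting error only. The footprint library with the fewest reads of the 6 was a 6 h library, and its share was 2.16%.

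At 6 h, none of the 10 enzymes passed the test in either assay, and at 21 h most of them had fallen in both. Of the 10383 genes tested for footprints at 6 h against untreated, 2.04% were called (limma, Benjamini-Hochberg adjusted p under 0.05), 1.05% higher and 0.992% lower, and 0 of the 10 enzymes were. At an unadjusted p under 0.05 there were 3. Limma's voom on the recovered reads called 3 (Gapdh and Eno1 higher, Hk2 lower), and it called 1276 of all 10383 genes. In RNA-seq at 6 h, limma called 0% of the 9443 genes tested and 0 of the 10 enzymes, of which 0 had an unadjusted p under 0.05 and 0 were called by voom. At 21 h, 39.1% of the 10383 genes were called in footprints, 18.9% of all genes being higher and 20.2% lower, and 9 of the 10 enzymes were lower. Their median log2 fold change was -0.51, in a range of -0.66 to -0.15, against a median of 0.0063 over all genes tested. In RNA-seq at 21 h, 23.8% of the 9443 genes were called, 11.6% higher and 12.2% lower, and 8 of the 10 enzymes were lower. Their median was -0.54, in a range of -0.85 to -0.23, against 0.017 over all genes tested. After scaling, both 21 h libraries lay below both untreated libraries for 10 of 10 enzymes in footprints, as for 35.0% of all genes tested, and for 10 of 10 in RNA-seq, as for 30.6% of all genes. At 6 h, 4 enzymes lay above and 4 below untreated in footprints, as did 25.7% and 28.6% of all genes. In RNA-seq at 6 h, 0 lay above and 4 below, against 21% and 23% of all genes. Groups without overlap at 6 h were thus common among all genes. Without scaling and with quantile normalization the enzymes kept these directions at 21 h, other than Aldoa RNA, which was at 0.03 with quantile normalization. Quantile normalization also brought the RNA values at 21 h against untreated closer to 0 for Pkm (-0.29), Gapdh (-0.28), Ldha (-0.27) and Pgk1 (-0.43), all still called. Without the trend of variance, the RNA calls of Gpi1, Gapdh, Eno1, Pkm and Ldha were lost (3 of 10 enzymes and 1601 of all 9443 genes called).

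**Figure D2:**
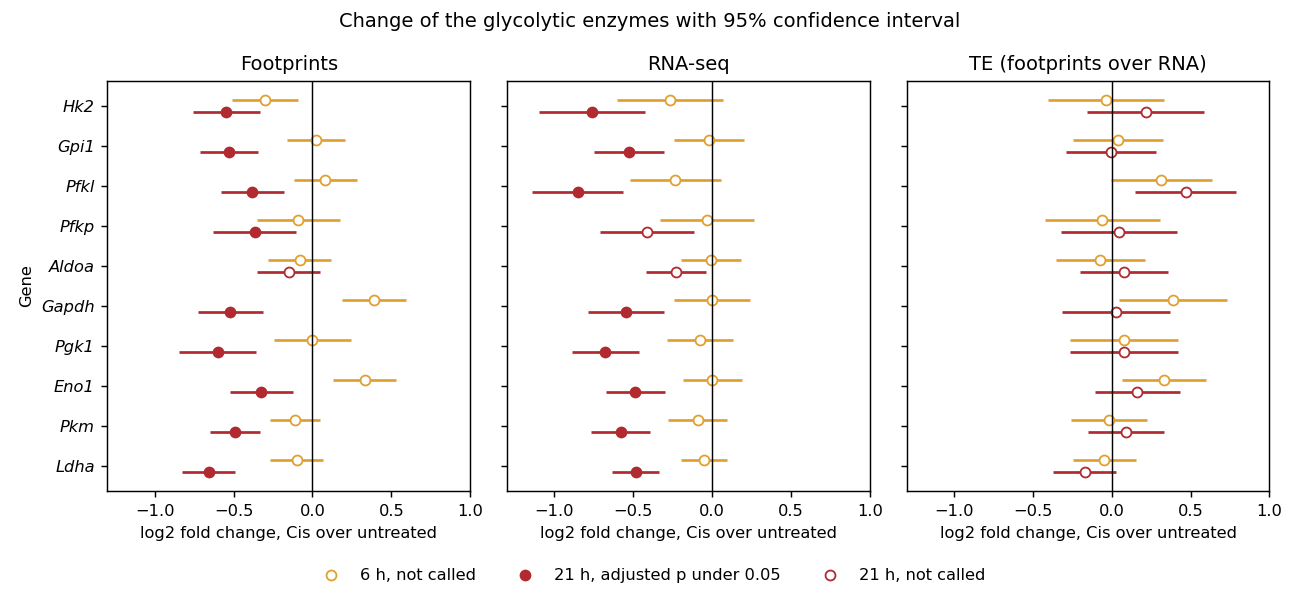
Log2 fold change of each enzyme at 6 h and at 21 h against untreated for footprints (left), RNA-seq (middle) and TE, footprints over RNA (right); lines are 95% confidence intervals of the limma fit, and filled points passed an adjusted p under 0.05. The 21 h points of 9 enzymes in footprints and 8 in RNA-seq are filled and lie below 0, and no point for 6 h or for TE is filled.

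Of the 5 enzymes that prime and cleave the sugar, 4 fell in footprints at 21 h and 3 in RNA. Hk2 (ENSMUSG00000000628), the hexokinase that traps glucose as glucose 6-phosphate and binds the mitochondrial outer membrane, had 87.9 and 91.2 RPKM of footprints in the untreated libraries, 73.9 and 72.6 at 6 h and 62.8 and 62.5 at 21 h. Its RNA was at 22.5 and 20.6 in untreated cells, 16.5 and 17.4 at 6 h and 11.8 and 14.9 at 21 h. Each step was downward without overlap between groups in both assays. At 6 h both libraries also lay below untreated for 28.6% of all genes in footprints and 23% in RNA. The change at 21 h was -0.55 in footprints (SE 0.09, adjusted p = 0.0022 from limma) and -0.76 in RNA (SE 0.15, adjusted p = 0.00658). Without the first untreated RNA-seq library the RNA value was -0.69 and no longer passed (adjusted p = 0.0595 from limma). At 6 h the footprint value was -0.30 (95% interval -0.51 to -0.09), with an adjusted p of 0.116 from limma.

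Gpi1 (ENSMUSG00000036427), which isomerizes glucose 6-phosphate to fructose 6-phosphate, had 1291 and 1266 RPKM of footprints in untreated cells, 1316 and 1306 at 6 h and 967 and 852 at 21 h. The 6 h libraries lay slightly above the untreated libraries and the 21 h libraries well below. In RNA, Gpi1 was at 176 and 163 in untreated cells, 162 and 157 at 6 h and 132 and 117 at 21 h. The change at 21 h was -0.53 in footprints (SE 0.08, adjusted p = 0.00124 from limma) and -0.52 in RNA (SE 0.10, adjusted p = 0.00507).

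Phosphofructokinase, the main control point of the pathway, is represented among the members by its liver-type subunit Pfkl (ENSMUSG00000020277) and its platelet-type subunit Pfkp (ENSMUSG00000021196). Another subunit, Pfkm, is not a member, and its footprint value at 21 h was -0.17 (adjusted p = 0.477 from limma). Pfkl footprints were 108 and 101 RPKM in untreated cells, 112 and 112 at 6 h and 84.3 and 80.4 at 21 h. Its RNA was 31.9 and 32.8 in untreated cells, 24.7 and 27.8 at 6 h and 19.5 and 18.1 at 21 h. At 6 h Pfkl thus had less RNA than in either untreated library and more footprints, with values of -0.23 and 0.08 that did not pass (adjusted p = 0.52 and 0.635 from limma). At 21 h the footprints had fallen by 0.38 (SE 0.09, adjusted p = 0.00891 from limma) and the RNA by 0.85 (SE 0.13, adjusted p = 0.00185), the largest RNA change among the 10. Pfkp footprints were 152 and 156 RPKM in untreated cells, 147 and 145 at 6 h and 138 and 109 at 21 h. The spread of its 21 h libraries was wider than in the other groups, and its change of -0.37 (SE 0.12) had an adjusted p of 0.035 from limma. Pfkp RNA was 20.6 and 21.1 in untreated cells, 18.5 and 20.5 at 6 h and 16.5 and 16.5 at 21 h. That value of -0.41 (SE 0.13) had an adjusted p of 0.0506 from limma. It passed with voom (adjusted p = 0.00946), and in limma with quantile normalization (adjusted p = 0.0259) or a filter of at least 5 RPKM (adjusted p = 0.0423). The Pfkp footprint call was lost in 9 of 16 alternative settings, among them no filter on low values (adjusted p = 0.0607) and no scaling (adjusted p = 0.0518). It was also lost without the first or the second untreated library (-0.41 and -0.33), either 6 h library (-0.37 and -0.37) or the second 21 h library (-0.19).

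Aldoa (ENSMUSG00000030695), the aldolase that cleaves fructose bisphosphate, had the smallest values and did not pass the test. Its footprints were 1172 and 998 RPKM in untreated cells, 1052 and 1015 at 6 h and 1037 and 961 at 21 h, so that the groups overlapped. After scaling, the lower untreated library (1017) and the higher 21 h library (1015) were almost equal. The value at 21 h was -0.15 (95% interval -0.35 to 0.05, adjusted p = 0.202 from limma). In RNA, Aldoa was at 358 and 338 in untreated cells, 335 and 324 at 6 h and 330 and 299 at 21 h. Here the value was -0.23 (95% interval -0.42 to -0.04, adjusted p = 0.0802 from limma), and without the first 21 h RNA-seq library it was -0.33 and passed (adjusted p = 0.0312). Voom called the Aldoa RNA value lower (-0.22, adjusted p = 0.0038), and quantile normalization put it at 0.03. A second row with the symbol Aldoa (ENSMUSG00000114515) was listed in 7 of the 12 libraries, with at most 7 reads in each. It passed the filter for footprints only, with a log2 fold change of -1.67 at 21 h and an adjusted p of 0.0694 from limma, and is left out of the counts of enzymes.

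Among the members, all 5 from Gapdh to Ldha fell in footprints and in RNA at 21 h. Gapdh and Eno1 had higher footprint values at 6 h that did not pass the test. Gapdh (ENSMUSG00000057666), which oxidizes glyceraldehyde 3-phosphate and yields NADH, had 832 and 905 RPKM of footprints in untreated cells, 1209 and 1092 at 6 h and 602 and 640 at 21 h. The 6 h libraries lay above and the 21 h libraries below the untreated libraries. Gapdh RNA was 529 and 509 in untreated cells, 501 and 490 at 6 h and 420 and 338 at 21 h. At 6 h the footprint value was 0.39 (95% interval 0.19 to 0.59), with an adjusted p of 0.0629 from limma, and the RNA value was 0.0011 (95% interval -0.24 to 0.24). At 21 h footprints had fallen by 0.52 (SE 0.09, adjusted p = 0.0023 from limma) and RNA by 0.55 (SE 0.11, adjusted p = 0.00651). Without the first untreated RNA-seq library the RNA value was -0.51 and no longer passed (adjusted p = 0.0515 from limma), and without the first or the second 21 h library it was -0.74 or -0.35 and passed. Gapdh is widely used as a loading reference.

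Eno1 (ENSMUSG00000063524), the enolase that forms phosphoenolpyruvate, had a similar course in footprints. It was at 490 and 410 RPKM in untreated cells, 569 and 571 at 6 h and 364 and 371 at 21 h. The 3 groups did not overlap, and at 6 h the value was 0.33 (95% interval 0.13 to 0.53) with an adjusted p of 0.0915 from limma. Eno1 RNA was 170 and 175 in untreated cells, 160 and 170 at 6 h and 134 and 127 at 21 h. Thus the RNA at 6 h was at or below the untreated level in RPKM. At 21 h footprints had fallen by 0.32 (SE 0.09, adjusted p = 0.0192 from limma) and RNA by 0.49 (SE 0.08, adjusted p = 0.00327). The footprint call was lost without the first untreated library (-0.22, adjusted p = 0.0842 from limma), the first 21 h library (-0.30, adjusted p = 0.0681) or the second 21 h library (-0.33, adjusted p = 0.0551).

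Pgk1 (ENSMUSG00000062070), the kinase of the first ATP-yielding step, had 2898 and 3319 RPKM of footprints in untreated cells, 3174 and 3092 at 6 h and 2287 and 1921 at 21 h. In RNA it was at 670 and 641 in untreated cells, 602 and 584 at 6 h and 471 and 400 at 21 h. The 21 h libraries lay below all others in both assays. Pgk1 fell by 0.60 in footprints (SE 0.11, adjusted p = 0.00262 from limma) and by 0.68 in RNA (SE 0.09, adjusted p = 0.00124). Pkm (ENSMUSG00000032294), the pyruvate kinase of the last ATP-yielding step, had 2943 and 3021 RPKM of footprints in untreated cells, 2804 and 2780 at 6 h and 2179 and 2169 at 21 h. Its RNA was 592 and 554 in untreated cells, 536 and 490 at 6 h and 422 and 391 at 21 h. In RPKM as deposited, both assays stepped down from untreated to 6 h and again to 21 h without overlap. After scaling, Pkm RNA in untreated cells (594 and 544) overlapped that at 6 h (559 and 509). Its values at 6 h did not pass, at -0.11 in footprints and -0.09 in RNA (adjusted p = 0.403 and 0.716 from limma). At 21 h Pkm had fallen by 0.49 in footprints (SE 0.07, adjusted p = 0.000927 from limma) and by 0.58 in RNA (SE 0.08, adjusted p = 0.00151). The deposited row is a single transcript of the gene, so the isoforms of pyruvate kinase M were not told apart.

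Ldha (ENSMUSG00000063229), the lactate dehydrogenase subunit that favours lactate formation, had the largest footprint change among the 10. Footprints were 6871 and 7143 RPKM in untreated cells, 6665 and 6554 at 6 h and 4668 and 4442 at 21 h. Its RNA was 878 and 880 in untreated cells, 819 and 797 at 6 h and 681 and 650 at 21 h. The groups did not overlap in either assay. At 21 h footprints had fallen by 0.66 (SE 0.07, adjusted p = 0.0003 from limma) and RNA by 0.49 (SE 0.07, adjusted p = 0.00106).

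The difference between 21 h and 6 h was tested directly. In footprints, 30.7% of all genes passed, 15.0% higher and 15.7% lower, and 7 of the 10 enzymes were lower (Gpi1, Pfkl, Gapdh, Pgk1, Eno1, Pkm and Ldha). The same 7 were lower in RNA-seq, where 15.7% of all genes passed, 7.53% higher and 8.21% lower. Leaving out the scaling shifted the median of all genes in this RNA-seq comparison by 0.14 on the log2 scale. The largest differences between the time points were those of Gapdh (-0.91) and Eno1 (-0.65) in footprints. Hk2, Pfkp and Aldoa did not pass, with values of -0.24, -0.28 and -0.07 in footprints (adjusted p = 0.0782, 0.104 and 0.574 from limma) and of -0.49, -0.38 and -0.22 in RNA (adjusted p = 0.054, 0.084 and 0.111). Voom called Hk2 and Pfkp lower in footprints (adjusted p = 0.0381 and 0.0214), and Hk2, Pfkp and Aldoa lower in RNA (adjusted p = 0.00196, 0.0329 and 0.0123). Quantile normalization called Hk2 lower in both assays (adjusted p = 0.0324 and 0.039 from limma) and put Aldoa RNA at 0.035. A filter of at least 5 RPKM called Hk2 RNA lower (adjusted p = 0.0421 from limma). Calls were lost for Pkm footprints without the first 6 h library (-0.38, adjusted p = 0.0512), for Gpi1 RNA without the second 21 h library (-0.39, adjusted p = 0.0516) and for Pfkl RNA without the second 6 h or the second 21 h library (-0.54 in each case). Pfkp footprints passed without the first 21 h library (-0.45, adjusted p = 0.0189) and were at -0.11 without the second, and Aldoa RNA did so without the first 21 h RNA-seq library (-0.33, adjusted p = 0.0446). Gapdh RNA was at -0.36 and still called without the second 21 h library. With quantile normalization the RNA calls of Gapdh (-0.26, adjusted p = 0.063 from limma) and Pkm (-0.18, adjusted p = 0.0535) were lost, and Pgk1 (-0.32) and Ldha (-0.17) were closer to 0 but called. Without the trend of variance 0 of the 10 enzymes and 790 of all 9443 genes were called in this RNA-seq comparison.

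The translation efficiency (TE) is the ratio of footprints to RNA, here of RPKM over RPKM for each replicate number, and its change was tested in a model of all 12 libraries as the difference between the changes of footprints and RNA. The enzymes differed widely in TE among themselves. Gpi1 (7.25 to 8.32 over the 6 ratios), Ldha (6.84 to 8.22) and Pfkp (6.58 to 8.38) lay between the percentiles 81.6 and 88.6 of the genes tested, whose medians were 3.23 to 3.68. Gapdh was lowest, at 1.43 to 2.41, between the percentiles 14.6 and 29.0. Eno1 (2.34 to 3.56) and Aldoa (2.96 to 3.27) were below the median of their library pair in each of the 6 ratios. Reads of Gapdh, Eno1 and Aldoa can be shared with copies in the genome, as given below. The effect of this on their TE was not tested. The subunits of phosphofructokinase stood apart in untreated cells, at 3.39 and 3.09 for Pfkl against 7.39 and 7.39 for Pfkp. The RNA was divided by the length of the transcript and the footprints by that of the coding sequence, so that the ratio of a gene also holds the share of its untranslated regions in the transcript. The depth in the RNA RPKM also counts the reads of Lars2, Tmem38b and Mettl26, which raises every ratio. Their share of RNA-seq reads was 54.5 and 53.8% in untreated cells, 56.6 and 56.5% at 6 h and 53.8 and 51.8% at 21 h. The median ratios of all genes tested were 3.41 to 3.55, 3.67 to 3.68 and 3.23 to 3.38 in the same order. The ratios here and in the next paragraph are not scaled for this.

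No change of TE passed the test for any of the 10. Each assay was scaled by its own median of ratios, so these values are relative to the other genes. A change of translation shared by all mRNAs would not show in them. The study reports inhibited protein synthesis under Cis in a puromycin incorporation assay, which labels new protein. At 6 h, 0% of 9295 genes passed, 0 of the 10 enzymes did, and 2 had an unadjusted p under 0.05. They were Gapdh, at 0.39 (SE 0.16, unadjusted p = 0.0293, adjusted p = 0.599 from limma), and Eno1, at 0.33 (SE 0.12, unadjusted p = 0.0196, adjusted p = 0.538 from limma). The TE ratios of Gapdh were 1.57 and 1.78 in untreated cells, 2.41 and 2.23 at 6 h and 1.43 and 1.89 at 21 h, so that the 6 h ratios were above the others. At 21 h, 0.409% of genes passed (0.258% higher, 0.151% lower), 0 of the 10 enzymes did, and 1 had an unadjusted p under 0.05. It was Pfkl, at 0.47 (SE 0.15, unadjusted p = 0.00784, adjusted p = 0.222 from limma), whose ratios were 3.39 and 3.09 in untreated cells and 4.33 and 4.44 at 21 h. The values of the 10 at 21 h ran from -0.17 (Ldha, 95% interval -0.37 to 0.03) to 0.47, with a median of 0.077 against -0.039 over all genes tested. Gapdh was at 0.03 (95% interval -0.32 to 0.37), at -0.02 without scaling and at -0.24 with quantile normalization. Between 21 h and 6 h, 1.01% of genes passed (0.592% higher, 0.420% lower) and 0 of the 10 enzymes did, with 1 at an unadjusted p under 0.05, Gapdh, at -0.36 (adjusted p = 0.334 from limma). Leaving out the scaling shifted the median of all genes by -0.12 in this comparison. Limma's voom called 0 of the 10 in each of the 3 TE comparisons.

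**Figure D3:**
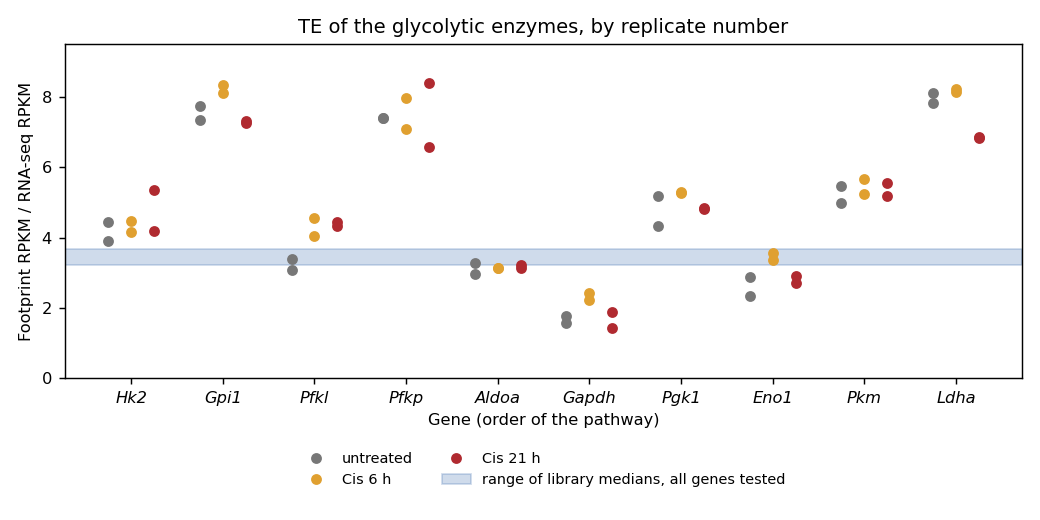
TE of each enzyme as footprint RPKM over RNA-seq RPKM, for the 2 replicate numbers of each group; the band is the range of the library medians over all genes tested, 3.23 to 3.68. Gpi1, Pfkp and Ldha lie above 6, and Gapdh lies below the band in all 6 ratios. The ratios are of RPKM as deposited, without scaling.

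The 10 enzymes had similar courses over the 12 libraries. With log2 values centred within each assay, Pearson's r of an enzyme to the mean of the other 9 was between 0.77 (Aldoa) and 0.985 (Gpi1). The libraries are shared by all of these values, and the r are a description. Of 637 genes outside the list with a mean of at least 50 RPKM in both assays, the 5 with the course most like the mean of the 10 were Scd2 (r = 0.989), Plac8 (0.988), Bnip3 (0.977), Cavin1 (0.976) and Rpl22l1 (0.975). Scd2 is a fatty acid desaturase and Bnip3 a mitophagy receptor of the hypoxia response.

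The genes around the core pathway were called in both directions, and their counts stand beside the 18.9% higher and 20.2% lower of all genes in footprints at 21 h and the 11.6% and 12.2% in RNA-seq. Of 19 other glycolytic enzymes and isoenzymes, 10 were tested for footprints, and at 21 h 2 were higher and 2 lower. Hk1, the other broadly expressed hexokinase, fell from 119 ± 12.7 to 58.5 ± 7.01 RPKM (SD, n = 2), a change of -1.06 (adjusted p = 0.000339 from limma). That is a larger fall than the -0.55 of Hk2, a difference that was not tested. Pgam1, the phosphoglycerate mutase, fell by 0.32 (adjusted p = 0.0163 from limma), while Bpgm (0.56, adjusted p = 0.00383) and Pklr (0.55, adjusted p = 0.0362) rose from 42.3 ± 1.82 and 11.4 ± 0.73 RPKM. The footprint calls of Hk1 and Bpgm held in all 16 alternative settings, while Pgam1 lost its call in 3 (values from -0.42 to -0.21) and Pklr in 6 (0.47 to 0.63). Among these settings were leaving out the second untreated or second 21 h library for Pgam1 (-0.32 and -0.21) and any untreated or 21 h library for Pklr. In RNA-seq, 0 of 9 tested were higher and 3 were lower with limma, and voom called 1 higher (Eno3) and 3 lower. Tpi1, the triose phosphate isomerase, was at 3655 ± 178 RPKM in untreated footprints, above Pgk1, and had a footprint value of -0.09 (adjusted p = 0.417 from limma), while its RNA fell by 0.24 (adjusted p = 0.0352). The median over the 10 tested was -0.05.

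Among the carriers of glucose and lactate, 5 of 10 were tested for footprints, and 3 were lower and 0 higher at 21 h. Slc2a1, the main glucose transporter GLUT1, fell from 204 ± 7.60 to 137 ± 6.64 RPKM of footprints (SD, n = 2), a change of -0.60 (adjusted p = 0.00101 from limma). The lactate exporter Slc16a3 fell by 0.43 (adjusted p = 0.00625 from limma) and Bsg, the chaperone of the lactate carriers, by 0.22 (adjusted p = 0.0463). Bsg lost its footprint call in 10 of 16 alternative settings (values from -0.28 to -0.17), among them without any 1 footprint library other than the second untreated one, and the other two lost theirs in 0. The same 3 were lower in RNA-seq, at -0.53, -0.37 and -0.36. Slc16a1, the other lactate carrier tested, had a footprint value of 0.04 (adjusted p = 0.716 from limma), and voom called its RNA higher at 21 h.

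Of the 9 tested genes of glycolytic rate control, 2 were higher and 1 lower in footprints at 21 h. Tigar, a p53 target whose product lowers fructose 2,6-bisphosphate, rose from 18.7 ± 2.45 to 40.2 ± 1.29 RPKM (SD, n = 2), a change of 1.05 (adjusted p = 0.000785 from limma). At 6 h it was the only gene of the lists outside the core enzymes that limma called in footprints (0.75, adjusted p = 0.0407), whereas voom also called Bsg, Ddit4, G6pdx and Dlat higher and Myc and Hk1 lower. Its RNA rose by 0.95 at 21 h (adjusted p = 0.0169). Pfkfb3, whose product mainly makes fructose 2,6-bisphosphate, rose by 0.77 (adjusted p = 0.00706 from limma) from 9.87 ± 0.08 RPKM. Pdk1, which inhibits pyruvate dehydrogenase, fell by 0.71 (adjusted p = 0.000859 from limma), and by 0.89 in RNA (adjusted p = 0.00275). These 3 footprint calls at 21 h held in all 16 alternative settings.

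The routes that branch from the pathway were mixed. Of 7 genes of pyruvate entry into mitochondria, 1 was higher (Pdhx, 0.36, adjusted p = 0.0481 from limma) and 1 lower (Pdha1, -0.34, adjusted p = 0.0327) in footprints at 21 h, and 2 were higher and 0 lower in RNA-seq. Of 7 genes of the pentose phosphate pathway, G6pdx (0.28, adjusted p = 0.03 from limma) and Pgd (0.27, adjusted p = 0.0187), its NADPH-forming dehydrogenases, were higher, and Pgls (-0.65, adjusted p = 0.0173) and Rpe (-0.44, adjusted p = 0.0204) were lower. In RNA-seq limma called 0 of these 7, with 2 at an unadjusted p under 0.05, and voom called 1, Tkt, lower. Of 3 tested genes of gluconeogenesis, Pck2 was lower (-0.32, adjusted p = 0.0496 from limma), and for RNA both limma and voom called 0, with 1 at an unadjusted p under 0.05. Out of 16 alternative settings the footprint call was lost in 11 for Pdhx and Pck2, 10 for G6pdx, 8 for Pdha1, 4 for Pgd and Rpe and 3 for Pgls. Leaving out any 1 footprint library ended the call of G6pdx (0.26 to 0.32) and Pdhx (0.29 to 0.45), any but the second 21 h library that of Pck2 (-0.33 to -0.22), and any but the first untreated library that of Pdha1 (-0.36 to -0.20). Pgd was not called without either untreated library or the second 21 h library (0.27 to 0.28), and Rpe without the second untreated library or either 21 h library (-0.45 to -0.30). Pgls was not called without the first untreated library (-0.35) or the first 21 h library (-0.61).

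**Figure D4:**
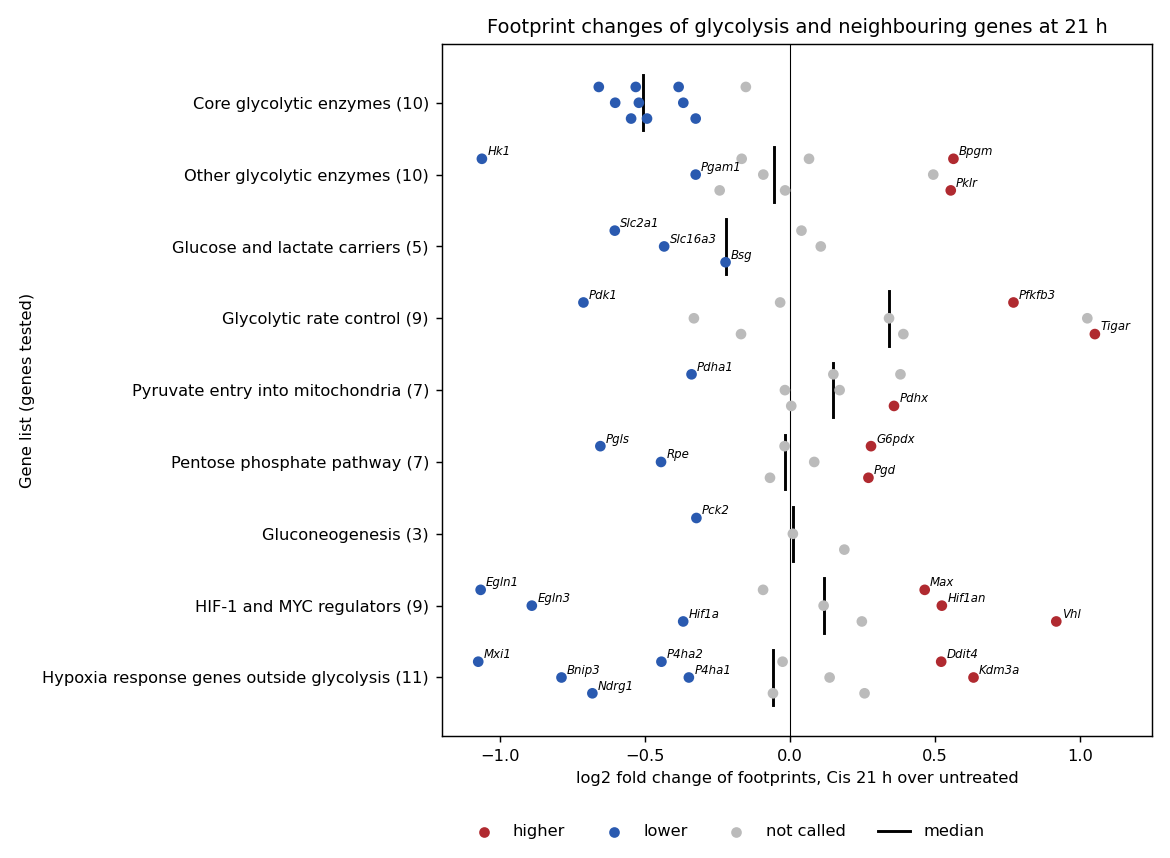
Log2 fold change of footprints at 21 h against untreated for the tested genes of each list; colored points passed an adjusted p under 0.05, and black bars are the medians. The core enzymes lie below 0 with a median of -0.51, while the other lists have medians between -0.22 and 0.34.

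Regulators of the pathway and other genes of the hypoxia response were set beside the enzymes. Of 9 tested regulators of HIF-1 and MYC, 3 were higher and 3 lower in footprints at 21 h. Vhl, the ubiquitin ligase subunit that marks HIF-1α for degradation, rose by 0.92 (adjusted p = 0.00119 from limma), and Hif1an, an asparaginyl hydroxylase of HIF-1α, by 0.52 (adjusted p = 0.024). The prolyl hydroxylases Egln1 and Egln3, themselves induced by HIF-1, fell by 1.07 (adjusted p = 0.00955 from limma) and 0.89 (adjusted p = 0.00091), and by 1.31 and 1.35 in RNA. Without the first untreated library Egln1 footprints were at -0.97 and not called, without the second 21 h library they were at -0.61 and still called, and Hif1an lost its call without the second untreated or the second 21 h library (values from 0.42 to 0.64 over all settings). Hif1a, chosen after its values were seen, was at -0.37 in footprints (adjusted p = 0.013 from limma) and at -0.19 in RNA (adjusted p = 0.255), and Myc at -0.09 in footprints (adjusted p = 0.522) and 0.34 in RNA (adjusted p = 0.0877), which voom called higher. The Hif1a call was lost without the first untreated library (-0.34) or the second 21 h library (-0.29). Of 11 tested hypoxia response genes outside glycolysis, 2 were higher and 5 lower. Mxi1 fell by 1.07 (adjusted p = 0.00106 from limma), Bnip3 by 0.79 (adjusted p = 0.00117) and Ndrg1 by 0.68 (adjusted p = 0.00574), whereas Kdm3a rose by 0.63 (adjusted p = 0.00526) and Vegfa was at -0.06 (adjusted p = 0.723). The footprint calls of Vhl, Egln3, Mxi1, Bnip3, Ndrg1 and Kdm3a held in all 16 alternative settings. For TE at 21 h, limma called 0 genes in each of these 8 lists, with 0 to 2 per list at an unadjusted p under 0.05, and voom called 1, P4ha1, lower.

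Other measures moved at 21 h along with the enzymes. The ductal markers Krt19 and Krt8 fell in footprints by 0.83 (adjusted p = 0.000161 from limma) and 0.59 (adjusted p = 0.000347), while Krt18 was at 0.06, and the sum over the 5 ductal markers went from 8933 to 9623 RPKM in untreated cells to 6599 to 6727 at 21 h. Leukocyte markers summed to 1.87 to 2.35 RPKM in untreated footprints and 3.57 to 9.68 at 21 h, acinar markers to 1.69 to 3.23 and 6.10 to 6.12, and fibroblast markers to 9.20 to 9.28 and 3.68 to 8.42. Their part in the fall of the enzymes was not tested. Genomic span also goes with the change at 21 h, and all 10 enzymes lay below the median of the tested genes within 1.5 times their own span, in footprints and in RNA. Those medians ran from -0.32 to 0.24 in footprints. Pfkp, the member with the longest span (69.2 kb), was closest to the genes like it, 46.4% of which lay lower in footprints, and Ldha (13.4 kb) had 4.36% of such genes lower.

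Reads of Aldoa, Eno1, Gapdh and Pgk1 can be shared with near-identical copies in the genome, and how the reads with several matches were counted is not given in the sources used here. Gm3839, a copy of Gapdh, had at most 58 reads in a library against at least 900 for Gapdh. Eno1b had at most 20 reads in a library against at least 539 for Eno1, Aldoart1 and Aldoart2 at most 16 and 29 against at least 969 for Aldoa, and Pgk2 at most 2 against at least 1526 for Pgk1. The levels and TE of these 4 enzymes are less certain for this reason. Copies of the other 6 were not looked at, so certainty was not compared between the enzymes.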

How the data were processed

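The members and gene lists were chosen with earlier results of these data known. The authors deposited RPKM for each library, without pooling, for a representative transcript of each gene. The values show that footprints were divided by the coding length and RNA-seq reads by the transcript length. The submitters' processing notes name cutadapt, STAR and GRCm39, without versions. RPKM multiplied by length gave whole multiples of the value of 1 read for 100% of values (tolerance 0.01 read), which gave reads and depth. Unlisted transcripts were set to 0. Within each assay, libraries were scaled by median of ratios and genes with a mean of at least 1 RPKM were kept. The model was limma 3.58.1 (R 4.3.3) on log2(RPKM + 0.5) (eBayes with a trend, 3 groups in a model, two-sided, Benjamini-Hochberg over all genes, threshold 0.05). With this pseudocount, fold changes of low genes come out too small. TE was fitted as an interaction over 12 libraries. An exact permutation test of 2 against 2 libraries cannot give p below 0.333. Means ± SD are of RPKM as deposited.

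All 10 members were named, as were up to 4 genes of each list, those with the largest absolute change among the genes called in footprints at 21 h. Genes named beyond this (Tpi1, Pfkm, Slc16a1, Hif1a, Myc, Vegfa, P4ha1, Ddit4, Eno3, Tkt, Dlat and the markers) were added after their values were seen. Alternatives were other pseudocounts, filters and scalings, eBayes without the trend, limma's voom on the recovered reads, the replicate number as a block, only the groups compared, a variance for each assay, and each library left out. The tests were run on simulated data in which the changed genes moved more than the 10 enzymes did at 21 h against untreated. Recovery of changes as small as those of the enzymes was not checked. A further allele of the line is not reported here. Promoters and gene spans came from RefSeq (GRCm38.p6); spans were used as lengths only. Analyses used Python 3.11.15.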

Additional observations from a re-analysis of the deposited data

Results flagged for a closer look

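For 7 of the 10 enzymes the effect of Cis differed between 21 h and 6 h by limma's test of the difference itself, in footprints and in RNA-seq alike. Of all genes tested, 30.7% differed in footprints and 15.7% in RNA-seq. In footprints the differences on the log2 scale (21 h minus 6 h) were -0.91 for Gapdh (adjusted p = 0.000324), -0.65 for Eno1 (0.0013), -0.60 for Pgk1 (0.00419), -0.56 for Ldha (0.00116), -0.55 for Gpi1 (0.00173), -0.47 for Pfkl (0.00533) and -0.38 for Pkm (0.00466). In RNA-seq they were -0.62 for Pfkl (adjusted p = 0.0126 from limma), -0.60 for Pgk1 (0.00381), -0.55 for Gapdh (0.00994), -0.51 for Gpi1 (0.00947), -0.49 for Eno1 (0.00545), -0.49 for Pkm (0.00545) and -0.43 for Ldha (0.00315). With quantile normalization the RNA differences of Pgk1, Gapdh, Pkm and Ldha were -0.32, -0.26, -0.18 and -0.17, and those of Gapdh and Pkm no longer passed. Without the trend of variance none of the 7 passed in RNA-seq. In both assays each of these enzymes was lower in both 21 h libraries than in both 6 h libraries. After scaling, so were 33.6% of all genes tested in footprints and 28.4% in RNA-seq.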

How the results depend on the processing

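Counts of the 10 enzymes called stayed within 1.5 times the reported count, other than in the following settings. For footprints at 6 h, where 0 were called, a filter of at least 5 RPKM called 1 (Gapdh, higher) and 344 of all 8254 genes. The model with only the 2 groups compared called 1 (Gapdh, higher) and 456 of all 10392 genes. There voom called 3 and 1276 of all 10383 genes. For RNA-seq without the trend of variance, 3 were called at 21 h against untreated (1601 of all 9443 genes) and 0 at 21 h against 6 h (790 of 9443). For TE at 21 h against 6 h, quantile normalization called 1 (Gapdh, lower) and 84 of all 9295 genes. The cause was not tested. With each library left out in turn, 7 to 8 enzymes were called lower in footprints at 21 h and 6 to 9 in RNA-seq. The lone library left in a group is then assumed to vary like the other groups.

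In all, 77 values were reversed, all of enzymes not called in either fit. Those that follow are a part of them. The others were of TE and of Aldoa, Gpi1 and Pfkp RNA at 6 h. Pgk1 footprints at 6 h moved to 0.014 without scaling, 0.0021 with voom and 0.017 with only the 2 groups compared, and ranged from -0.12 to 0.11 with a library left out. Over the left-out libraries Aldoa footprints at 6 h ranged from -0.18 to 0.0096. Gapdh RNA at 6 h was -0.067 without scaling, -0.017 with quantile normalization and -0.047 to 0.040 with a library left out. Eno1 RNA at 6 h was 0.0016 with voom, 0.015 with only the 2 groups compared and -0.043 to 0.040 with a library left out. Gapdh TE at 21 h was -0.021 without scaling, -0.24 with quantile normalization and -0.17 to 0.22 with a library left out. With quantile normalization, Aldoa RNA was 0.032 at 21 h against untreated and 0.035 against 6 h.

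The replicate numbers did not pair the libraries (correlations of their deviations between -0.0143 and 0.0215). With the replicate number as a block, 9 enzymes were called lower in footprints at 21 h and 9 in RNA-seq, Aldoa RNA being added (adjusted p = 0.0472 from limma), and the other counts were the same.

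Of the 34 genes of the lists and markers called in footprints at 21 h, 16 kept their call in every alternative run and 0 reversed.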
